A study of Mus musculus with 12 samples.

Results

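The genes described here code for the machinery of mitosis, namely the kinases that start it, the kinetochores that tie chromosomes to the spindle, the motors of the spindle, the proteins of the midzone and cytokinesis, and the condensin complex. They are 40 genes of the 29838 in the table, found by their symbols and chosen by function, and all 40 were expressed highly enough to be tested among 12994 genes. Their RNA was measured by RNA sequencing in erythroblasts sorted from the bone marrow of wild-type C57BL/6 male mice aged 8 weeks, with no treatment and no altered allele in any stage. Cells depleted of CD45+ leukocytes and negative for CD45, CD11b, Gr1 and the death stain 7-AAD were sorted into proerythroblasts (Pro, high CD44 and low Ter119) and, within Ter119+ cells, into basophilic (Baso), polychromatic (Poly) and orthochromatic (Ortho) erythroblasts by falling CD44 and cell size. There were 3 libraries for each of the 4 stages. The stage of Ortho replicates 2 and 3 was taken from their titles, since their cell type label reads only erythroblast. No source used here says whether the 3 libraries of a stage came from separate mice, so the p-values measure only the spread between these samples, which may be technical.

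Terminal erythroid differentiation runs through a few rapid divisions, after which the Ortho cell leaves the cell cycle, condenses its nucleus and expels it. In a dividing cell, the mitotic kinases switch on spindle assembly, the spindle checkpoint holds back the anaphase-promoting complex until every kinetochore is attached, and condensin compacts the chromosomes before they are pulled apart. Most of these transcripts are made in the G2 phase and mitosis and are low in cells that have stopped dividing. The comparisons asked at which step of maturation each of these groups declined, and by how much.

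Values are FPKM, fragments per length of transcript and per number of mapped fragments, so that levels of different genes can be set side by side per length of transcript. The summed FPKM of a library was between 505624 and 691033, which is not its depth, and how deeply each library was sequenced is unknown. Differences between stages are given on the scale of log2(FPKM + 1), on which 1 stands for about 2-fold at the levels of these genes. A gene was called higher or lower when limma gave an adjusted p under 0.05, over all genes tested, and a difference of at least 1. Hemoglobin transcripts made up 6.98 to 10.7% of the summed FPKM of Pro libraries, 33.2 to 36.7% for Baso, 34.8 to 37.6% for Poly and 47.2 to 52.6% for Ortho. The 10 erythroid markers summed to 21100 to 32400 FPKM in Pro and 168000 to 201000 in Ortho, and none was at 0. Most of that sum came from the hemoglobin genes Hbb-bs and Hba-a1, with means of 86900 and 92600 FPKM in Ortho. In Ortho compared with Poly, 3 of the 10 were called lower, against 4.81% of all genes, and 0 higher, against 1.05%. The 3 were Klf1 (-2.06), Epor (-1.83) and Gata1 (-1.67). Transcripts of other marrow cells were present too. The 8 neutrophil markers summed to 7040 to 8890 FPKM for Pro, 12200 to 14400 for Baso, 15800 to 18800 for Poly and 14000 to 17400 for Ortho, and 0 of the 8 were called in Ortho compared with Poly. The 8 B cell markers summed to 63.1 to 110 FPKM in Pro and 160 to 206 in Ortho, the 7 macrophage markers to 29.2 to 35 in Pro and 62 to 73.2 in Ortho, and the 6 megakaryocyte markers to 70.3 to 129 in Pro and 38.3 to 47.2 in Ortho. The 6 T and NK cell markers summed to 20.9 to 28.2 in Pro and 33 to 39.1 in Ortho, where 2 of them, Cd3e and Cd3g, were at 0 in all libraries. Nearly all of this sum was Nkg7, with means of 23.6 in Pro and 35.1 in Ortho, and 5 of the 6 had means below 1 in both stages. Most of the macrophage sum was Csf1r and Cd68, while C1qa, C1qb and C1qc had means below 1 at every stage. The mean of Vcam1 was 3.03 in Pro and 2.25 in Ortho. The 4 progenitor markers summed to 86.5 to 102 FPKM in Pro and 130 to 136 in Ortho. From Pro to Ortho the means went from 57.1 to 73.9 for Myb, 13 to 27.4 for Gata2 and 8.58 to 16.7 for Cd34. That of Kit went from 17.8 to 14.5. The part of these transcripts in the results was not tested.

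Mitotic transcripts stayed at or above their Pro level through Poly in most cases and were lower in Ortho. The 40 genes together summed to between 2907 and 3355 FPKM in the Pro libraries, 3752 to 4150 in Baso, 3676 to 3804 in Poly, and 1228 to 1327 at the Ortho stage. They made up 0.555 to 0.664% of the summed FPKM for Pro, 0.62 to 0.721% for Baso, 0.62 to 0.658% for Poly and 0.18 to 0.2% for Ortho. Every Ortho library therefore lay below every library of the other stages in this sum. In Ortho compared with Poly, 38 of the 40 genes were called lower, against 4.81% of all genes tested, and 0 were called higher, against 1.05%. The 2 not called were Cdc25b and Spc24. With the adjusted p as the only criterion all 40 were lower, against 21.7% of all genes, and 0 higher, against 4.43%, and the 3 Ortho libraries lay below the 3 Poly libraries for all 40, against 31.3% of all genes. The median difference of the 40 was -1.57, from -2.30 for Cdk1 to -0.70 for Cdc25b, where the median of all genes tested was -0.078. In FPKM, the median gene kept 32.8% of its Poly level in Ortho, with a range from 18.6% to 61%. In a bulk sample, fewer cells in mitosis and less of these RNAs per cell cannot be told apart.

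The share of hemoglobin RNA was higher in Ortho than in Poly, and FPKM is relative to all transcripts of a library. When hemoglobin genes were removed and the remaining FPKM rescaled, all 40 genes remained below 0 in Ortho compared with Poly, with a median of -1.43, and 35 were called lower, against 3.61% of all genes. The checkpoint genes Bub1b (-0.97), Mad2l1 (-0.93) and Ttk (-0.89) fell short of a difference of 1 under that scaling, beside Cdc25b and Spc24, and centring each library on its median also gave 35, against 3.36% of all genes.

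**Figure D1:**
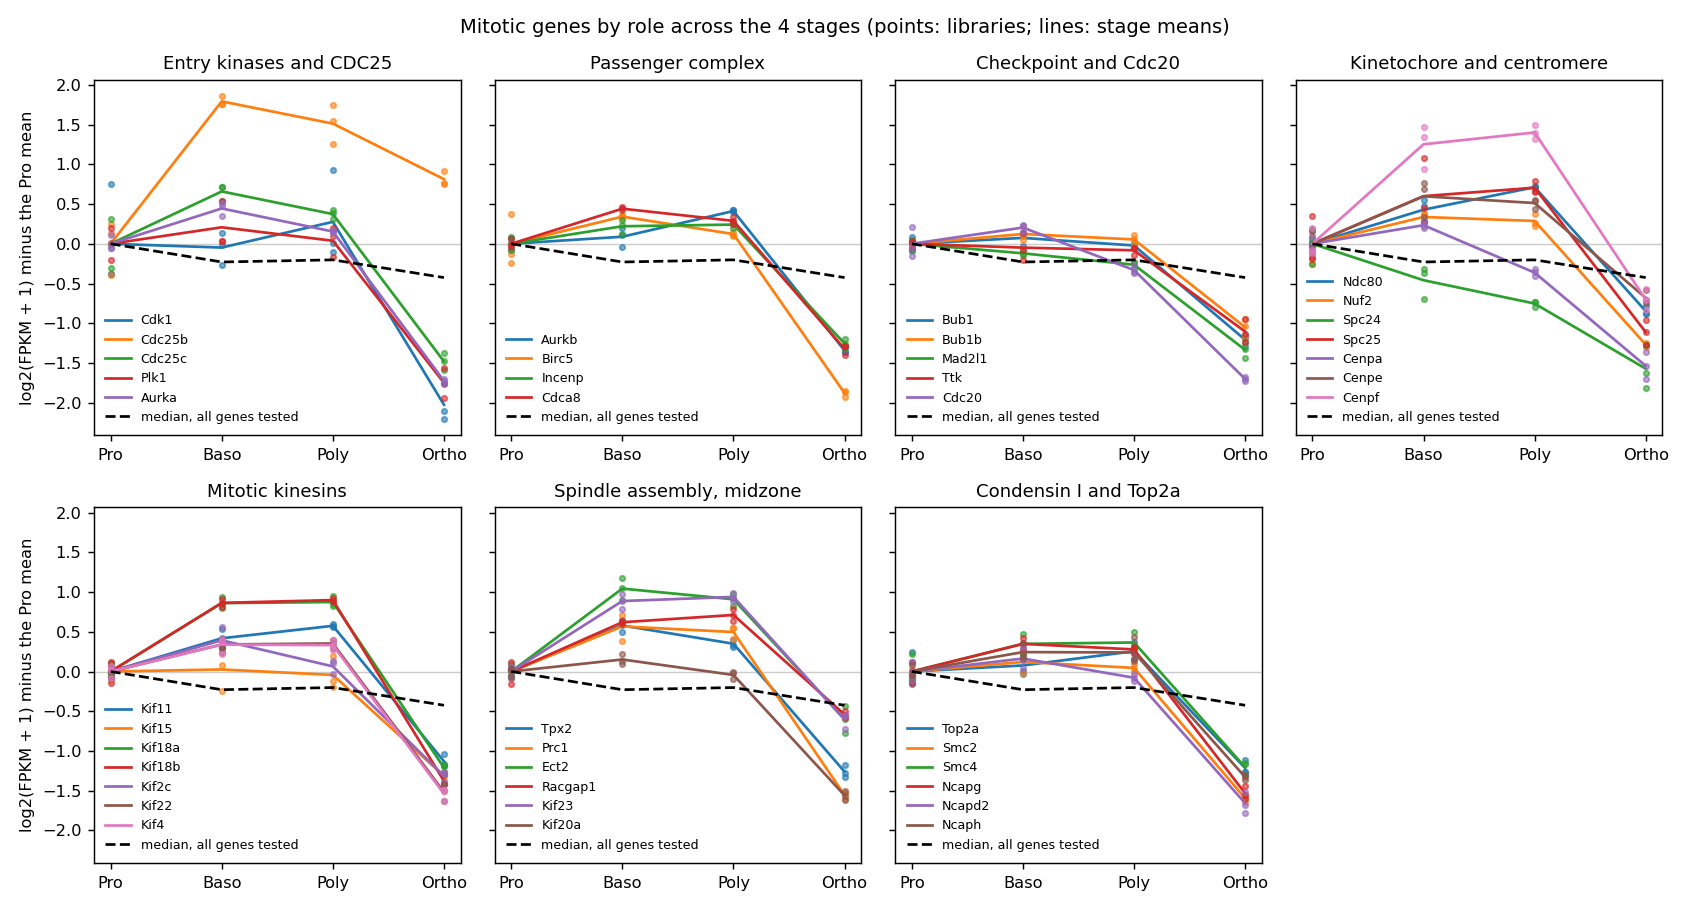
Level of each of the 40 genes in Pro, Baso, Poly and Ortho as log2(FPKM + 1) minus the mean of the Pro libraries, in 7 panels by role. Points are single libraries, coloured lines join the stage means, and the dashed line is the median of all genes tested. In every panel the lines descend from Poly to Ortho. Before that most lie near or above 0, those of Spc24, Cenpa, Cdc20 and Mad2l1 being the lowest in Poly, and only the line of Cdc25b ends above 0.

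The earlier steps showed no comparable loss. In Baso compared with Pro, 0 of the 40 were called lower, against 8.54% of all genes, and 3 were called higher, against 1.82%. The 3 were Cdc25b (1.79), the kinetochore corona gene Cenpf (1.25) and Ect2 (1.04), an activator of RhoA at the division site. At the adjusted p alone 26 were higher, against 14.9% of all genes, and 1 was lower, against 42.1%. That 1 gene was Spc24 (-0.46). The Baso libraries lay above all Pro libraries for 25 of the 40, against 16.8% of all genes, and below them for 2, against 44.2%. The median difference of the 40 was 0.34 while that of all genes tested was -0.229, and 39 of the 40 lay above the latter. Ect2 was not called with a pseudocount of 5 (0.93), with libraries rescaled to the same sum (0.87) or without Baso replicate 3 (0.98). The number higher at the adjusted p alone depended on the scaling, and was 15, beside 2 lower, when libraries were rescaled to the same sum, against 8.89% and 51.3% of all genes. With hemoglobin genes left out it was 36, beside 0 lower, against 27.1% and 24.4%.

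Between Baso and Poly the differences were small and leaned lower. The median of the 40 was -0.07, beside 0.034 for all genes tested, and 30 of the 40 lay below the latter. In Poly compared with Baso, 0 of the 40 were called lower, against 0.454% of all genes, and 0 higher, against 0.0616%. So few genes were called at this step that these counts cannot show that levels held. At the adjusted p alone limma gave 5 lower, against 5.77% of all genes, and 2 higher, against 6.58%. The 5 were the centromeric histone gene Cenpa (-0.60), Cdc20 (-0.54), Kif2c (-0.33), Aurka (-0.29) and Tpx2 (-0.23), and the 2 were Aurkb (0.33) and Ndc80 (0.28). Without Poly replicate 1, 2 or 3, 2 were lower, against 2.63 to 2.92% of all genes, and 0 higher, against 1.75 to 2.45%. With libraries rescaled to the same sum, 2 were lower, against 4.59%, and 1 higher, against 4.64%. The libraries did not overlap for 13 genes lower in Poly, against 15.9% of all genes, and 4 higher, against 20.5%. In Poly compared with Pro, 0 were called lower, against 12.8% of all genes, and 2 higher, against 3.59%, again Cdc25b (1.51) and Cenpf (1.40). At the adjusted p alone 23 were higher in that comparison, against 23.3% of all genes, and 4 were lower, against 42.7%. The 4 were Spc24 (-0.75), Cenpa (-0.36), Cdc20 (-0.33) and Mad2l1 (-0.26), of which Cdc20 and Mad2l1 turned to 0.01 and 0.08 with hemoglobin genes left out. The counts were 13 higher and 7 lower with libraries rescaled to the same sum, against 17.6% and 50% of all genes, and 34 higher and 1 lower with hemoglobin genes left out, against 35.5% and 27.5%.

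Whether the last step differed from the sum of the steps before it was tested directly, as the difference from Poly to Ortho minus that from Pro to Poly. On this measure 36 of the 40 genes were called lower, against 7.63% of all genes, and 0 higher, against 10.5%. At the adjusted p alone 39 were lower, against 17.5% of all genes. The median was -1.95, where all genes tested had 0.058. It ran from -3.50 (standard error 0.24, adjusted p = 1.99e-06) for Cenpf to -0.06 (standard error 0.26, adjusted p = 0.862) for Spc24, whose sign turned to 0.06 without Pro replicate 2 and to 0.05 without Ortho replicate 1. The Poly libraries enter both differences, so that their errors count on both sides. The 4 genes not called were Spc24, Cenpa (-0.81), Mad2l1 (-0.81) and Ttk (-0.94), all parts of the kinetochore or its checkpoint.

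Ortho compared with Pro gave the outcome over the whole course. Of the 40 genes, 33 were called lower, against 23.8% of all genes, and 0 higher, against 6.33%. At the adjusted p alone 39 were lower, against 53.2% of all genes, and 1 was higher, against 22.7%, which was Cdc25b (0.82). The same 39 had every Ortho library below every Pro library, against 53.6% of all genes. The median difference was -1.32, beside -0.425 for all genes tested, and Cdk1 had the lowest (-2.03). Without Pro replicate 1, Cdk1 had -1.65 and Plk1 the lowest, -1.85. The 6 lower genes that did not reach a difference of 1 were Racgap1 (-0.54), Ect2 (-0.60), Kif23 (-0.61), Cenpe (-0.68), Cenpf (-0.70) and Ndc80 (-0.85). Of these, Racgap1, Ect2 and Kif23 act together in cytokinesis. The count depended on the scaling. With hemoglobin genes left out, or with each library centred on its median, 15 were called lower and 1 higher, although 39 of the 40 remained below 0. Of all genes, 8.75% were called lower and 15.1% higher under the first of these scalings, and 9.95% and 16% under the second.

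**Figure D2:**
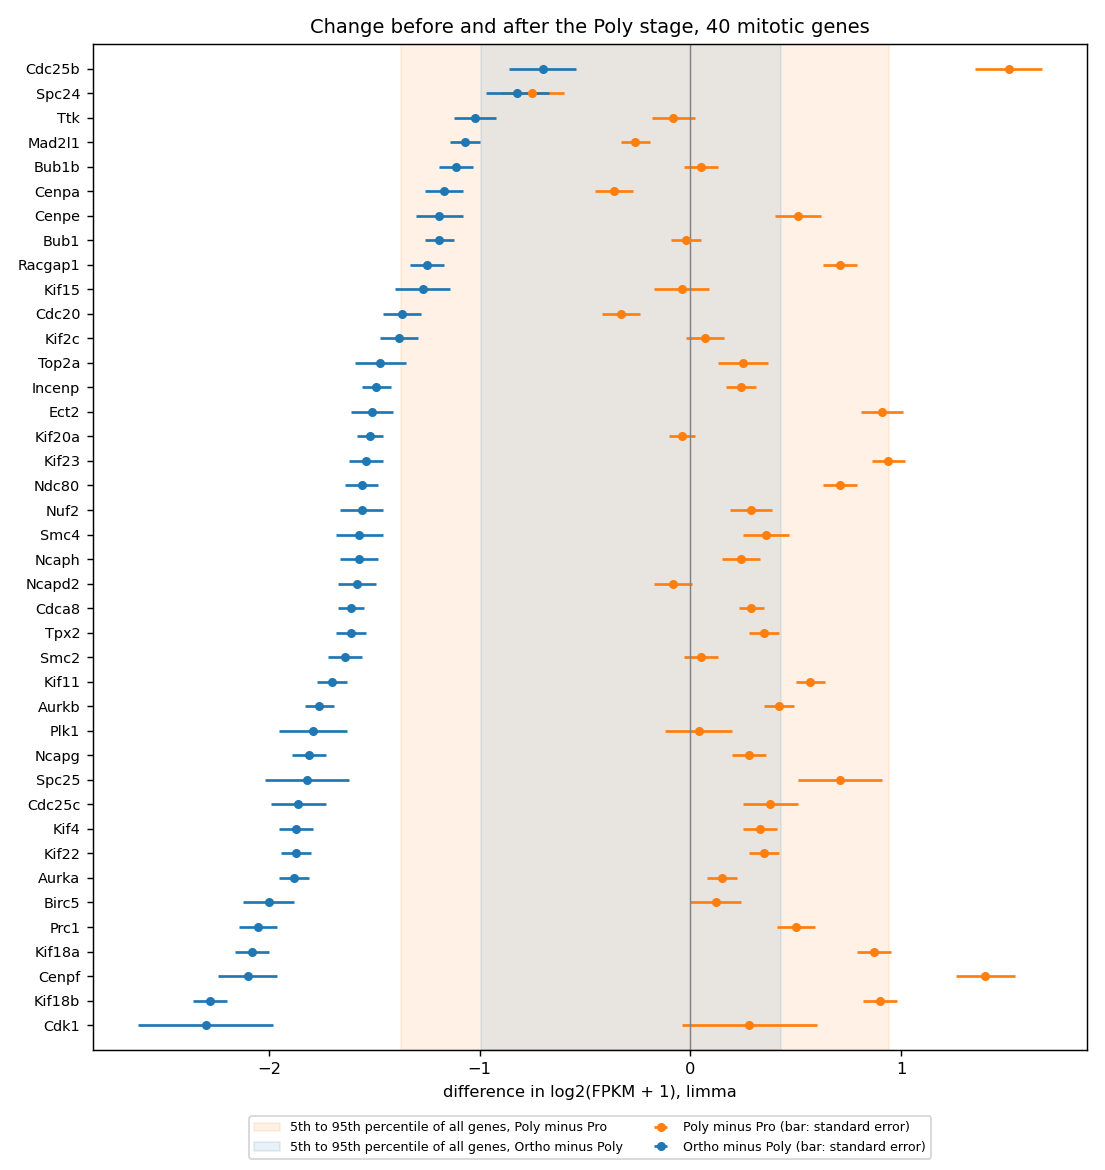
Difference in log2(FPKM + 1) for each of the 40 genes from Pro to Poly (orange) and from Poly to Ortho (blue), with standard errors from limma as bars and genes ordered by the second difference. Shaded bands hold the middle of all genes tested, from the 5th to the 95th percentile. All blue points lie left of 0, 38 of them beyond -1, while the orange points spread on both sides of 0.

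Of the 40 genes, 23 had their highest mean FPKM in Baso, 14 in Poly, 3 in Pro and 0 in Ortho, and 39 had their lowest mean in Ortho. The exception was Cdc25b, which was lowest in Pro. These stages were not counted for all genes, of which 53.2% were lower in Ortho compared with Pro at the adjusted p alone. Step by step, 38 genes were first called lower from Poly to Ortho, 0 at an earlier step, and 2 (Cdc25b and Spc24) at none. By the rule of a call, all 7 groups of genes thus had their first decline at the last step, and differed in what remained. This rests on the size needed for a call. Smaller declines came earlier at the adjusted p alone, for Spc24 from Pro to Baso (-0.46) and, among others, Cenpa (-0.60) and Cdc20 (-0.54) from Baso to Poly. The median gene of a group kept, in Ortho, 26.3% of its Poly FPKM among the entry kinases and CDC25 phosphatases, 26.7% among the mitotic kinesins, 30.6% in the chromosomal passenger complex, 32.9% at the kinetochore and centromere, 33% in condensin, 33.6% in the spindle assembly and midzone group and 45.7% in the checkpoint group. Relative to Pro the order differed. The median gene kept 52.8% in the midzone group, 44.1% at the kinetochore and centromere and 41.6% in the checkpoint group. The other medians relative to Pro were 39.1% for the passenger complex, 38% for kinesins, 36% for condensin and 29.2% for the entry group. These medians rest on 4 to 7 genes each and describe the groups without a test.

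Promoters of genes that peak in late cell cycle are known for a pair of short sequences, the cell cycle genes homology region (CHR, TTTGAA), which the LIN54 subunit of the MuvB complex binds, and the CCAAT box, which the factor NF-Y binds. MuvB works with B-MYB and FOXM1 to raise such genes in dividing cells, and with p130 and E2F4 as the DREAM complex to repress them in resting ones. RefSeq promoters on GRCm38.p6, from 250 bases before the start to 50 after it, were matched for 33 of the 40 genes, Ect2 and Prc1 with 2 each. Both strands were searched for TTTGAA or its variant TTCGAA, which reads the same on both strands, and for CCAAT. A CHR was found in 27 of the 33 genes (81.8%), against 21.7% of 27025 genes with a promoter and 16.8% of the 8900 of them that were tested. CCAAT was found in 25 of the 33 (75.8%), against 41.1% and 43.3%, and both in 24 (72.7%), against 8.61% and 7.16%. Per promoter, 19.2% of all 32851 held a CHR and 37.4% a CCAAT. The 6 genes with no CHR in this window were Birc5, Cenpe, Kif18a, Mad2l1, Ncaph and Nuf2, and their median difference in Ortho compared with Poly was -1.56, beside -1.58 for the 27 with one. For TTTGAA alone the medians were -1.61 for the 25 genes with it and -1.38 for the 8 without. Bub1 and Cdc25b, which hold only the variant, are among those 8. Neither contrast was tested. A match describes the letters and shows no binding.

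The 200 bases before the start are shown for 7 genes, in the direction of transcription, with CHR matches (TTTGAA, or TTCAAA where it lies on the other strand, and TTCGAA) and CCAAT matches (CCAAT or ATTGG) in capitals. No match shown overlaps another. Cdk1 and Top2a are shown because they hold several of both, Cdc20, Kif11 and Ncapd2 for 3 of the roles, Ncaph as a gene that fell as far with no match, and Cdc25b as the gene that fell least.
Cdk1 (chr10:69352913-69353112, minus strand): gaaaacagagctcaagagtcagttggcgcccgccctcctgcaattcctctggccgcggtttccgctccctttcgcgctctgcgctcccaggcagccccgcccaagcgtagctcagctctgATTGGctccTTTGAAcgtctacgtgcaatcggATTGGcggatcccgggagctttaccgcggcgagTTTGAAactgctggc
Cdc20 (chr4:118437344-118437543, minus strand): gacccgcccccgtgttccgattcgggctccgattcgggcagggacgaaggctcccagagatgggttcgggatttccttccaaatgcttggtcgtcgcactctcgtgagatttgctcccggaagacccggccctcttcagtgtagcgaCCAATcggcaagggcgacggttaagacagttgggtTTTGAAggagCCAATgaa
Kif11 (chr19:37376182-37376381, plus strand): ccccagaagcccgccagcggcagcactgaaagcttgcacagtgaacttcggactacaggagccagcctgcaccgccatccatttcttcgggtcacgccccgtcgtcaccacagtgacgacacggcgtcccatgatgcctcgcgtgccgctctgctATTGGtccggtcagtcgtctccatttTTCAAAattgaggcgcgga
Top2a (chr11:99024190-99024389, minus strand): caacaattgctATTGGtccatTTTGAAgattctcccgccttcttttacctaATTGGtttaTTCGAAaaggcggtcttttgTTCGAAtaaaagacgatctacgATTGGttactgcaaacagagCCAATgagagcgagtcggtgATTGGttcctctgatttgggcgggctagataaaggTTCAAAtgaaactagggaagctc
Ncapd2 (chr6:125191587-125191786, minus strand): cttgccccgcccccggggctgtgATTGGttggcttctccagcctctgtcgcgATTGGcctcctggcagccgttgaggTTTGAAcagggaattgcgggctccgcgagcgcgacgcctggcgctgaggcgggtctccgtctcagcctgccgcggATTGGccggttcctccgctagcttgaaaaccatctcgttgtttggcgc
Ncaph (chr2:127133955-127134154, minus strand): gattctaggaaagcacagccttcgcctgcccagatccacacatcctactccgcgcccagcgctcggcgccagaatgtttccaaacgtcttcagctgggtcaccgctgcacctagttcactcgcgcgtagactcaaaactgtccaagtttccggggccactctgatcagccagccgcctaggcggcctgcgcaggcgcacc
Cdc25b (chr2:131186748-131186947, plus strand): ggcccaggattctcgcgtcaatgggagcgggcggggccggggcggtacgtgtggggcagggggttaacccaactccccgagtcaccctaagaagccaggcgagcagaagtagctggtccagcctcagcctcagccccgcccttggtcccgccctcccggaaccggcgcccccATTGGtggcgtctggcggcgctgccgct
The Cdc25b stretch ends before its CHR variant, which begins 8 bases after the start. Ncaph, with no capitals, had a difference of -1.57 in Ortho compared with Poly, next to -1.58 for Ncapd2.

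Of the genes that bring a cell into mitosis, 4 of 5 were called lower in Ortho compared with Poly, against 4.81% of all genes. Cdk1, the kinase that drives entry into mitosis, lies on chromosome 10 from 69335146 to 69352938 of mm10. In the replicates 1, 2 and 3 of each stage, its FPKM was 137, 61.8 and 61.8 for Pro, 66.8, 80.1 and 88.7 for Baso, 154, 74.8 and 81.3 for Poly and 18.0, 16.7 and 23.0 for Ortho. Pro replicate 1 and Poly replicate 1 stood well above the other libraries of their stages, and all Ortho libraries were below all others. Ortho differed from Poly by -2.30 (standard error 0.32, adjusted p = 0.00018), the lowest of the 40. Without Poly replicate 1 it was -1.98, and Kif18b was then the lowest with -2.27. Plk1, a kinase of centrosome maturation and mitotic exit, had an FPKM of 76.4, 89.0 and 101 for Pro, 90.8, 90.7 and 129 for Baso, 94.2, 101 and 78.3 for Poly and 25.5, 22.3 and 29.3 for Ortho. It differed by -1.79 (standard error 0.16, adjusted p = 5.27e-06), and its earlier stages overlapped. Aurka codes for Aurora A, the kinase of spindle poles, and read 79.1, 70.3 and 70.5 for Pro, 102, 93.3 and 105 for Baso, 81.1, 81.2 and 82.4 for Poly and 21.0, 21.4 and 21.9 for Ortho. It was highest in Baso and fell by a difference of -1.88 (standard error 0.07, adjusted p = 1.34e-08) from Poly to Ortho, with replicates that lay close together. The Ortho libraries kept 18.6% ± 3.22 (SD, n = 3) of the mean Poly FPKM for Cdk1, 28.2% ± 3.85 for Plk1 and 26.3% ± 0.56 for Aurka.

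The 2 CDC25 phosphatases, which remove the inhibitory phosphates from CDK1, parted. Cdc25c had an FPKM of 18.2, 11.5 and 14.3 for Pro, 24.4, 21.5 and 24.3 for Baso, 19.1, 18.2 and 19.7 for Poly and 4.12, 4.53 and 4.97 for Ortho, a difference of -1.86 (standard error 0.13, adjusted p = 9.45e-07) from Poly to Ortho. Its relative Cdc25b, on chromosome 2 from 131186949 to 131198497, read 86.5, 79.8 and 55.1 for Pro, 266, 248 and 247 for Baso, 213, 245 and 174 for Poly and 124, 123 and 138 for Ortho. Every Cdc25b value in Baso, Poly and Ortho was above every Pro value. From Pro to Baso, Cdc25b rose by 1.79 (standard error 0.16, adjusted p = 5.06e-06), and it was lower in Ortho than in Poly, with a difference of -0.70 (standard error 0.16, adjusted p = 0.00564), which passed the adjusted p and not the size of a call. Even so, Ortho was above Pro by 0.82 (standard error 0.16, adjusted p = 0.000581). With 129 ± 8.38 (SD, n = 3), Cdc25b had the highest mean FPKM of the 40 genes in Ortho, and Cdc25c, with 4.54 ± 0.427, the lowest. The ratio of Cdc25b to Cdc25c within a library went from 5.19 ± 1.59 (SD, n = 3) for Pro to 10.9 ± 0.707 for Baso, 11.1 ± 2.3 for Poly and 28.4 ± 1.56 for Ortho, given as a description. Exons of Cdc25b and Cdc25c overlap those of genes on the opposite strand, by 92 and 623 bases, and reads there cannot be assigned without strand.

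**Figure D3:**
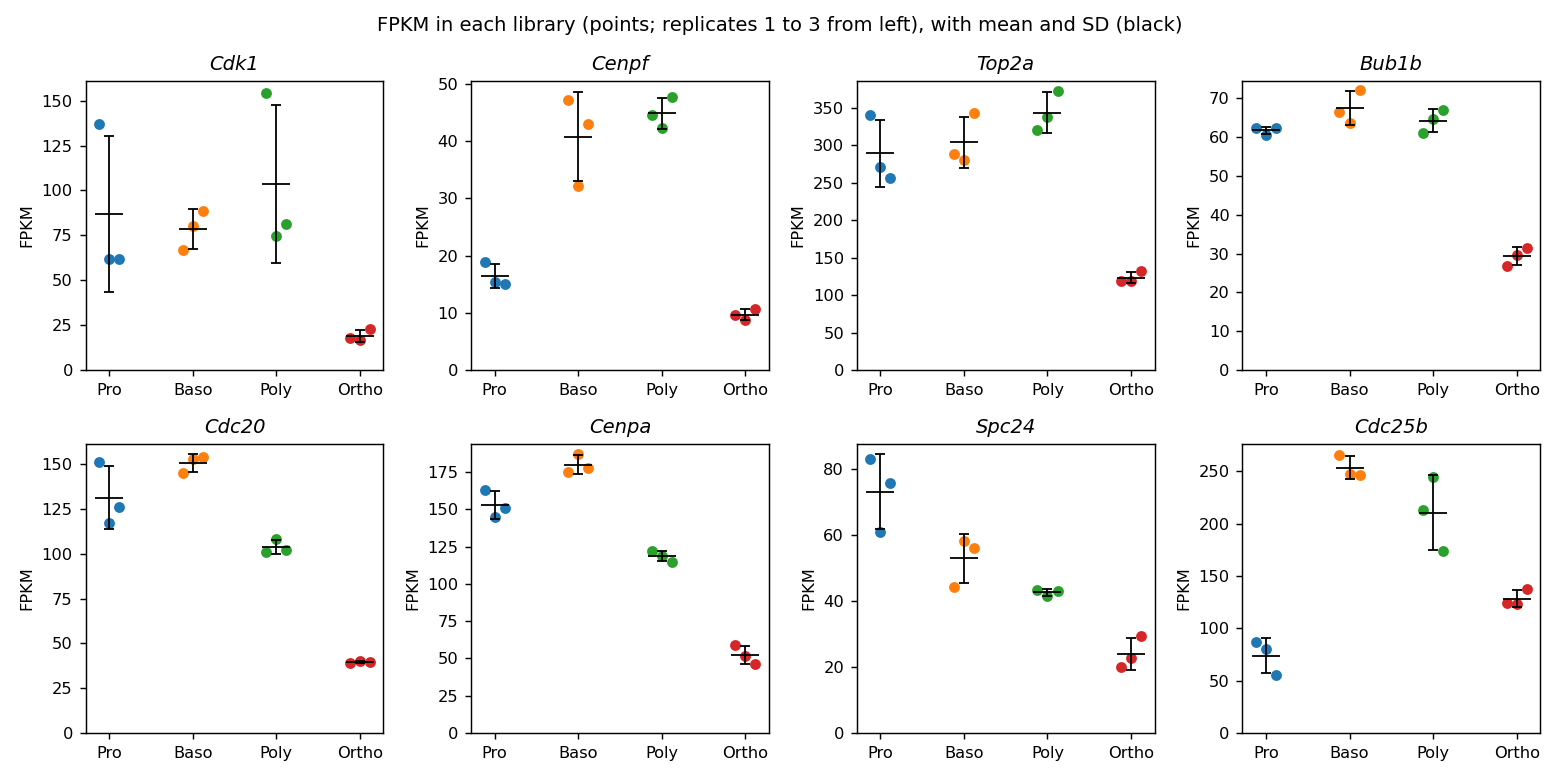
FPKM of 8 genes in each of the 12 libraries, with replicates 1 to 3 of a stage from left to right, the mean as a long black bar and the SD as whiskers. Cdk1, Cenpf, Top2a, Bub1b and Cdc20 drop in Ortho below all other libraries, Cenpa and Cdc20 are already lower in Poly than in Baso, Spc24 has its highest values in Pro, and Cdc25b stays above its Pro level in Ortho.

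The chromosomal passenger complex, which corrects wrong attachments and later marks the division plane, fell as a whole. In Ortho compared with Poly, 4 of its 4 genes were called lower, against 4.81% of all genes. Aurkb, its kinase Aurora B, had an FPKM of 97.7, 88.4 and 93.6 for Pro, 90.2, 101 and 107 for Baso, 125, 125 and 123 for Poly and 37.2, 35.6 and 35.6 for Ortho. Unlike most of the 40 it rose from Baso to Poly, by 0.33 (standard error 0.07, adjusted p = 0.0177), before a difference of -1.76 (standard error 0.07, adjusted p = 2.08e-08) to Ortho. The rise of Aurkb did not pass the adjusted p without Poly replicate 1, 2 or 3. Birc5, which codes for survivin, the subunit that docks the complex on centromeres, read 298, 210 and 194 for Pro, 288, 292 and 295 for Baso, 256, 249 and 246 for Poly and 59.9, 63.1 and 62.5 for Ortho. Pro replicate 1 held about as much Birc5 as the Baso libraries, and the other Pro libraries held less. Birc5 had the largest loss of the complex, -2.0 (standard error 0.12, adjusted p = 3.17e-07). The scaffold gene Incenp (-1.49) and Cdca8, coding for borealin (-1.61), had smaller differences. Birc5 relative to Aurkb, per length of transcript, stood at 2.5 ± 0.499 (SD, n = 3) for Pro, 2.94 ± 0.225 for Baso, 2.01 ± 0.0273 for Poly and 1.71 ± 0.0913 for Ortho.

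From Poly to Ortho, though not from Pro to Ortho, the spindle checkpoint group declined least among the 7 groups by its median. All 5 of its genes were called lower in Ortho compared with Poly, against 4.81% of all genes, with differences from -1.02 to -1.37. Bub1b codes for BUBR1, an inhibitor of the anaphase-promoting complex. Its FPKM was 62.3, 60.6 and 62.2 for Pro, 66.4, 63.7 and 72.1 for Baso, 61.1, 64.5 and 66.9 for Poly and 26.8, 29.7 and 31.5 for Ortho. All Baso values were above those of Pro, Poly overlapped both, and Ortho was lower than Poly, a difference of -1.11 (standard error 0.08, adjusted p = 5.97e-07). Mad2l1, the gene of the checkpoint protein MAD2, read 55.2, 60.3 and 59.7 for Pro, 52.7, 53.4 and 54.8 for Baso, 46.6, 49.6 and 49.2 for Poly and 22.7, 20.9 and 24.1 for Ortho. Its mean stepped down at each stage, and neither step before Poly passed the adjusted p on its own. With hemoglobin genes left out, its difference from Pro to Poly changed sign. Ortho differed from Poly by -1.07 (standard error 0.07, adjusted p = 3.73e-07). Cdc20, the target of the checkpoint and the mitotic activator of the anaphase-promoting complex, had 151, 117 and 126 for Pro, 145, 153 and 154 for Baso, 101, 108 and 102 for Poly and 38.9, 40 and 39.5 for Ortho. All Poly libraries lay below all libraries of Pro and Baso, with a difference of -0.54 (standard error 0.09, adjusted p = 0.00417) from Baso to Poly, and the last step added -1.37 (standard error 0.09, adjusted p = 3.23e-07). The difference of Cdc20 from Pro to Poly also changed sign with hemoglobin genes left out. Bub1 (-1.19), a checkpoint kinase, and Ttk (-1.02), which codes for the MPS1 kinase, were lower in Ortho as well. Ttk was not called with a pseudocount of 5 (-0.78) or without Ortho replicate 1 (-0.96), and Mad2l1 was not called with a pseudocount of 5 (-0.96).

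At the kinetochore, 6 of 7 genes were called lower in Ortho compared with Poly, against 4.81% of all genes. Before that the group spread from -0.75 for Spc24 to 1.40 for Cenpf in Poly compared with Pro. The NDC80 complex, 4 proteins that grip the microtubule end, had genes that did not move together. Ndc80 read 30.1, 29.8 and 29.2 for Pro, 43.8, 36.0 and 41.6 for Baso, 48.8, 49.2 and 49.9 for Poly and 16.8, 15.8 and 15.6 for Ortho, with Pro lowest of the first 3 stages and Poly highest. It differed by 0.71 (standard error 0.08, adjusted p = 9.56e-06) from Pro to Poly and by -1.56 (standard error 0.08, adjusted p = 6.1e-08) from Poly to Ortho. Spc24, on chromosome 9 from 21755442 to 21760303, went the other way, with 83.0, 60.9 and 75.8 for Pro, 44.4, 58.3 and 56.2 for Baso, 43.5, 41.5 and 43.2 for Poly and 20, 22.8 and 29.4 for Ortho. Pro libraries were above all others, and Ortho below all others. Its differences were -0.75 (standard error 0.15, adjusted p = 0.000999) from Pro to Poly and -0.82 (standard error 0.15, adjusted p = 0.00144) from Poly to Ortho, the lowest of the 40 in the first comparison and, after Cdc25b, the smallest loss in the second. Nuf2 (-1.56) and Spc25 (-1.82), the other two subunits, were called lower at the last step, and Spc25 was uneven in Baso, where its FPKM was 70.0, 39.6 and 44.8. SPC24 and SPC25 form a pair in the complex, and the ratio of their FPKM was 2.25 ± 0.37 (SD, n = 3) for Pro, 1.12 ± 0.435 for Baso, 0.794 ± 0.0406 for Poly and 1.64 ± 0.147 for Ortho.

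Cenpa codes for the histone H3 variant that marks centromeres. It had an FPKM of 163, 145 and 151 for Pro, 175, 187 and 178 for Baso, 122, 119 and 115 for Poly and 58.7, 51.9 and 46.2 for Ortho. As with Cdc20, all Poly libraries were below those of Pro and Baso, with a difference of -0.60 (standard error 0.09, adjusted p = 0.00258) from Baso, and Ortho was lower again, with -1.17 (standard error 0.09, adjusted p = 1.01e-06) from Poly. Cenpe, a kinesin that carries chromosomes to the spindle equator, read 31.1, 25.3 and 26.7 for Pro, 47.7, 35.2 and 45.0 for Baso, 40.7, 37.8 and 41.0 for Poly and 16.5, 16 and 18.1 for Ortho. Pro values lay below those of Baso and Poly, and the difference of Ortho from Poly was -1.19 (standard error 0.11, adjusted p = 8.65e-06). Cenpf, a large protein of the outer corona, is on chromosome 1 from 189640606 to 189688086, and had 18.8, 15.4 and 15.0 for Pro, 47.1, 32.2 and 43.0 for Baso, 44.5, 42.2 and 47.7 for Poly and 9.63, 8.72 and 10.7 for Ortho. Its values in Baso and Poly were all above those in Pro, which in turn were above those in Ortho. Cenpf rose by 1.25 (standard error 0.14, adjusted p = 1.92e-05) from Pro to Baso and fell by a difference of -2.10 (standard error 0.14, adjusted p = 4.2e-07) from Poly to Ortho, so that its range over the stages was wide and its net difference from Pro was -0.70 (standard error 0.14, adjusted p = 0.000605).

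**Figure D4:**
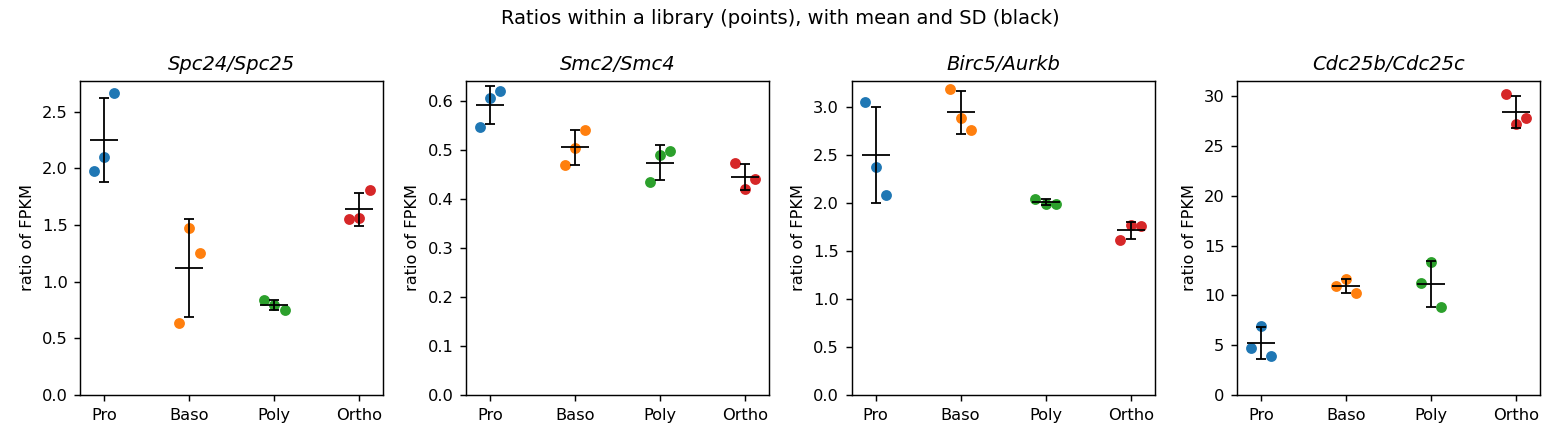
Ratios of the FPKM of 4 pairs of partner genes within each library, with the mean and SD of the 3 libraries of a stage in black. Spc24 over Spc25 dips in Poly, Smc2 over Smc4 declines slightly from 0.591 in Pro to 0.444 in Ortho, Birc5 over Aurkb is lowest in Ortho, and Cdc25b over Cdc25c is highest there.

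All 7 mitotic kinesins were called lower in Ortho compared with Poly, against 4.81% of all genes. Of the 7, 6 were higher in Baso than in Pro at the adjusted p alone, against 14.9% of all genes, Kif15 being the other. Such counts depended on the scaling. Over all groups of mitotic genes together, the 26 higher in Baso became 15 with libraries rescaled to the same sum, against 8.89% of all genes. They became 36 with hemoglobin genes left out, against 27.1% of all genes. Kif11 codes for Eg5, the motor that pushes spindle poles apart, and read 90.1, 83.9 and 82.3 for Pro, 115, 105 and 124 for Baso, 127, 126 and 130 for Poly and 36.8, 37.6 and 41.1 for Ortho. It rose from Pro to Poly by 0.57 (standard error 0.07, adjusted p = 4.69e-05) and fell by a difference of -1.70 (standard error 0.07, adjusted p = 2.96e-08). Kif2c codes for MCAK, which takes microtubule ends apart at the centromere, and had 27.2, 29.0 and 30.4 for Pro, 37.6, 34.4 and 43.0 for Baso, 28.1, 31.0 and 31.6 for Poly and 10.4, 11.2 and 11.4 for Ortho. Baso libraries were above all others, and Ortho was lower than Poly, a difference of -1.38 (standard error 0.09, adjusted p = 4.19e-07). Kif22, a chromosome arm motor, read 93.9, 89.0 and 85.1 for Pro, 110, 111 and 119 for Baso, 115, 110 and 118 for Poly and 28.2, 30.8 and 32.7 for Ortho, a difference of -1.87 (standard error 0.07, adjusted p = 1.51e-08) from Poly. A pseudogene named for it, Kif22-ps, is in the same table and could share its reads, so the value of Kif22 is uncertain. Kif18b (-2.28) and Kif18a (-2.08), which limit the length of microtubules, had the largest losses of the group, followed by Kif4 (-1.87), a partner of condensin and PRC1. Kif15 (-1.27), a second bipolar spindle motor, had the smallest.

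The genes of spindle assembly and the midzone stood highest above Pro before they fell. Their median difference in Poly compared with Pro was 0.60. Of the 6, 5 were higher in that comparison at the adjusted p alone, against 23.3% of all genes. Over all groups of mitotic genes together, the 23 higher in Poly became 13 with libraries rescaled to the same sum, against 17.6% of all genes. They became 34 with hemoglobin genes left out, against 35.5% of all genes. All 6 genes of this group were called lower in Ortho compared with Poly, against 4.81% of all genes. Tpx2, the activator of Aurora A on microtubules, had an FPKM of 69.5, 65.6 and 69.2 for Pro, 107, 96.8 and 103 for Baso, 90.3, 84.7 and 86.1 for Poly and 26.4, 27.6 and 29.6 for Ortho. It was highest in Baso, and Ortho differed from Poly by -1.61 (standard error 0.07, adjusted p = 2.08e-08). Prc1, which crosslinks the antiparallel microtubules of the midzone, read 80.3, 76.4 and 71.4 for Pro, 116, 99.6 and 125 for Baso, 111, 101 and 111 for Poly and 24.3, 25.7 and 25.6 for Ortho, and its difference of -2.05 (standard error 0.09, adjusted p = 2.21e-08) was the largest of the group. The subunits of centralspindlin, Kif23 (-1.54) and Racgap1 (-1.25), and their partner Ect2 (-1.51) had lower values in Ortho than in Poly, and kept 33.8% ± 2.29, 41.4% ± 1.22 and 33.8% ± 4.16 (SD, n = 3) of the Poly mean. Kif20a, which brings the passenger complex to the midzone, differed by -1.52. Exons of Prc1 overlap those of Rccd1 by 911 bases, and those of Kif20a overlap Cdc23 by 1271 bases, both on the opposite strand.

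Condensin I and topoisomerase II alpha fell by similar amounts. The 6 differences in Ortho compared with Poly ran from -1.81 to -1.47, all called lower, against 4.81% of all genes. Top2a, on chromosome 11 from 98992943 to 99024189, untangles sister chromatids, and had the highest mean FPKM of the 40 in Poly. It read 340, 271 and 257 for Pro, 288, 281 and 343 for Baso, 320, 338 and 373 for Poly and 119, 119 and 132 for Ortho. The first 3 stages overlapped, and Ortho was lower than Poly, a difference of -1.47 (standard error 0.12, adjusted p = 1.8e-06). The paired ATPase subunits of condensin were both lower by a similar amount. Smc2 had 87.2, 76.9 and 79.0 for Pro, 89.6, 79.8 and 95.4 for Baso, 83.6, 81.0 and 86.1 for Poly and 26.1, 25.3 and 26.9 for Ortho, a difference of -1.64 (standard error 0.08, adjusted p = 4.81e-08), and Smc4 had 159, 127 and 127 for Pro, 191, 158 and 176 for Baso, 193, 165 and 173 for Poly and 55.1, 60.3 and 61.1 for Ortho, a difference of -1.57 (standard error 0.11, adjusted p = 5.08e-07). Ncapd2, a HEAT-repeat subunit that is specific to condensin I, read 199, 216 and 185 for Pro, 220, 205 and 248 for Baso, 195, 184 and 188 for Poly and 57.4, 61.8 and 69.1 for Ortho, and differed by -1.58 (standard error 0.09, adjusted p = 1.98e-07). For Ncapg, its other HEAT-repeat subunit, the difference was -1.81, and for Ncaph, the kleisin that closes the ring, -1.57. The 6 genes kept between 27.2% and 35.8% of their Poly FPKM.

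The 40 genes lie on 15 chromosomes, 8 of them on chromosome 2. The exons of 11 overlap those of a gene on the opposite strand, by 11 to 1271 bases, and those of 2 overlap genes on the same strand, Top2a by 122 bases with 1 gene and Ncapd2 by 472 bases with 2. For these genes the counting of shared reads is uncertain.

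The other genes of the same pathways were taken from 9 lists, and their counts were read against the same background of 4.81% lower and 1.05% higher in Ortho compared with Poly. Of the constitutive centromere network, the inner kinetochore, 9 of 16 were called lower, with a median of -1.07. Cenpl was lowest (-1.99) and Cenpx highest (-0.05, adjusted p = 0.94). Cenph of this list had the lowest difference in Ortho compared with Pro (-2.71) and Cenpq the highest (-0.54). Cenph declined at every step, its FPKM being 67.7, 72.4 and 64.8 for Pro, 37.7, 40.9 and 44.8 for Baso, 23.0, 20.2 and 24.4 for Poly and 10.4, 8.86 and 9.51 for Ortho. In the outer kinetochore and corona 12 of 15 were called lower, from the scaffold gene Knl1 (-1.93) to Zwint (-0.21), and compared with Pro from Kntc1 (-1.87) to Mis12 (-1.03).

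Condensin II, which shares SMC2 and SMC4, fell with condensin I, and all 3 of its own subunits were called lower. Ncapd3 had -1.84 and Ncaph2 -1.18, and compared with Pro, Ncapg2 was lowest (-1.86) and Ncapd3 highest (-1.32). Cohesin, the ring that holds sister chromatids together and also shapes chromatin outside mitosis, had 2 of 11 genes called lower, with a median of -0.59. Rad21, its kleisin, was lowest (-1.40), with an FPKM of 107, 123 and 121 for Pro, 199, 183 and 194 for Baso, 186, 177 and 181 for Poly and 69.0, 65.0 and 69.9 for Ortho, and the loader gene Mau2 was highest (-0.08, adjusted p = 0.593). Compared with Pro, Smc1a was lowest (-1.34) and Mau2 highest (-0.12, adjusted p = 0.215). Of 5 genes of sister separation 4 were called lower, Sgo1, the protector of centromeric cohesin, the most (-1.88). Pttg1, which codes for the separase inhibitor securin, differed from the rest of that list. Its FPKM was 18.9, 8.43 and 14.9 for Pro, 20.6, 18.7 and 18.0 for Baso, 18.7, 11.9 and 11.2 for Poly and 27.4, 31.7 and 19.9 for Ortho, all Ortho libraries lay above all Poly libraries, and the difference was 0.88 (standard error 0.26, adjusted p = 0.0278). This was under the size of a call, which it reached without Poly replicate 1 (1.10), without Ortho replicate 3 (1.06) or with hemoglobin genes left out (1.02). It did not pass the adjusted p without Poly replicate 2 or 3 or without Ortho replicate 1 or 2. Espl1, separase, was lowest of that list compared with Pro (-1.60) and Pttg1 highest (0.90).

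The anaphase-promoting complex, which also works in resting cells, had 3 of 18 genes called lower, with a median of -0.37. The 3 were Fbxo5 (-1.95), an inhibitor of the complex, and the ubiquitin-conjugating enzymes Ube2c (-1.82) and Ube2s (-1.30), while none of its core subunits was called. Fzr1 was the highest (0.40). Fzr1 codes for CDH1, which takes over from CDC20 as the activator of the complex after mitosis and holds cells in G1. Its FPKM was 45.3, 50.6 and 48.4 for Pro, 153, 145 and 147 for Baso, 158, 162 and 147 for Poly and 205, 202 and 209 for Ortho. Every later library was above every Pro library, and Ortho was above all others. Fzr1 was higher in Ortho than in Pro by 2.07 (standard error 0.06, adjusted p = 1.69e-09), and Anapc1 was the lowest of the list (-1.56).

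Among 20 other spindle and cytokinesis genes 16 were called lower in Ortho compared with Poly, with a median of -1.5. Spag5, coding for astrin, was lowest (-2.13) and Cep55, of the abscission site, highest (-0.17, adjusted p = 0.621), and compared with Pro, Hmmr was lowest (-1.65) and Cep55 highest (0.67). Of 9 mitotic cyclins and regulators of CDK1, 5 were called lower. Ccna2, cyclin A2, was lowest (-1.92) and Cdc25a, the CDC25 of the G1 to S transition, highest (-0.44), and compared with Pro, Ccnb1, cyclin B1, was lowest (-1.81) and Mastl highest (-0.94). Of 11 genes for MuvB, its partners B-MYB and FOXM1 and the repressor side of DREAM, 5 were called lower. The B-MYB gene Mybl2 was lowest (-1.71), from 73.1, 69.4 and 72.8 for Poly and 20.4, 21.0 and 22.6 for Ortho, and also compared with Pro (-1.93). Rbl2, which codes for p130 of the DREAM complex, was highest in both comparisons (0.15, adjusted p = 0.376, and -0.25, adjusted p = 0.0567), and neither difference passed the test.

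**Figure D5:**
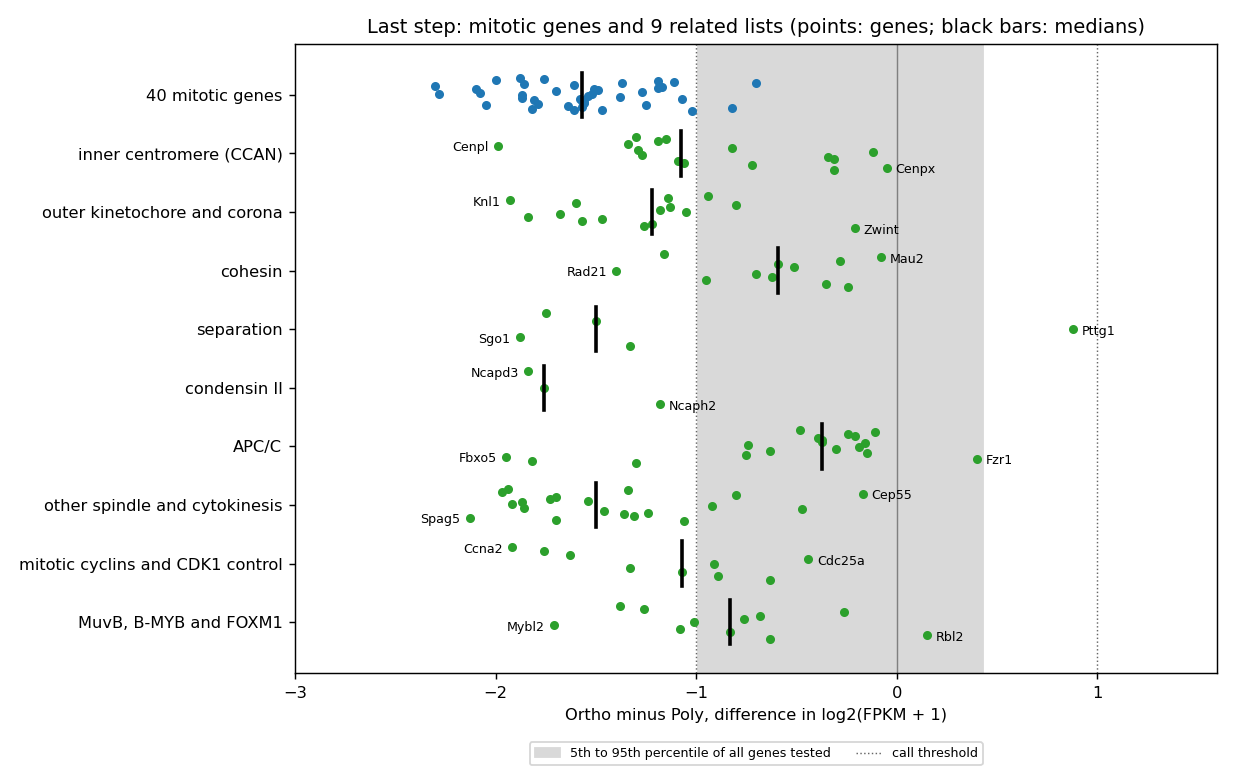
Difference in log2(FPKM + 1) between Ortho and Poly for the 40 mitotic genes (blue) and the genes of 9 related lists (green), with black bars at the medians, grey shading from the 5th to the 95th percentile of all genes tested and dotted lines at the size of a call. The 40 genes and the condensin II, separation and other spindle lists have medians at or beyond -1.5, and cohesin and the anaphase-promoting complex have medians of -0.59 and -0.37, inside the shading.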

How the data were processed

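RNA was sequenced from 12 libraries of sorted mouse bone marrow erythroblasts, 3 for each of the 4 stages, grouped by their titles. The authors deposited 1 table of FPKM per gene, which they made, per the submitters' processing notes, with cutadapt, Trimmomatic, HISAT2, SAMtools, featureCounts and the mm10 build, whose versions are not given in the sources used here. The labels give Trizol extraction with NEBNext Ultra libraries and the study's methods cell lysates with KAPA Hyper Prep, so the kit is uncertain. FPKM keeps no depth here, and whether counting used strand is not given.

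The 29839 lines hold 29838 genes. Of these, 12994 reached 1 FPKM in 3 or more libraries and were analysed on log2(FPKM + 1) with limma 3.58.1 in R 4.3.3, with all 12 libraries in 1 model, a variance trend and Benjamini-Hochberg adjustment over all genes tested, for 6 comparisons. A gene was called at an adjusted p under 0.05 with a log2 difference of 1 or more. With 3 libraries against 3, an exact permutation test of a single gene cannot go below 0.1, so p-values come from limma alone. The script was tested on simulated data. No 2 libraries held identical values. The genes, roles and lists were chosen with earlier results of these data known. All 40 genes are named. Values in every library are given for 22 genes picked by role and for those with the extreme differences, and of each related list the genes with the lowest and highest difference. A further list is not reported here. Others with library values (Fzr1, Cenph, Rad21, Pttg1, Mybl2 and Spc25 in Baso), and Ube2c and Ube2s, were picked after their values were seen. Gene positions are those of GENCODE M21 on mm10, promoters those of RefSeq on GRCm38.p6, read in Python 3.11.15.

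Same-numbered Baso, Poly and Ortho libraries deviated together from their stage means (correlations 0.156 to 0.319), and Pro with the others less so (0.00524 to 0.0968). The pairing of Baso, Poly and Ortho comes from these values alone. Alternatives covered the pseudocount, the filter, the scaling, the variance trend, the samples fitted, the replicate block, the rule of a call and leaving out each library.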

Additional observations from a re-analysis of the deposited data

How the results depend on the processing

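The count of 38 genes lower in Ortho compared with Poly lay between 35 and 40 under every alternative, and the count for the last step against the earlier ones between 34 and 39. Leaving out 1 library gave 37 to 38 (4.7 to 5% of all genes) and 35 to 37 (7 to 8.16%). It gave 32 to 33 lower in Ortho compared with Pro (23.1 to 25%) and 2 to 3 higher in Baso compared with Pro (1.66 to 2.19%). Between 37 and 38 genes were then first lower at the last step. With the adjusted p alone, Baso compared with Pro had 1 lower (42.1% of all genes) and 26 higher (14.9%). Poly compared with Baso had 5 (5.77%) and 2 (6.58%), and Poly compared with Pro 4 (42.7%) and 23 (23.3%). Ortho compared with Pro had 1 higher (22.7%). With hemoglobin genes left out, 6 were higher in Baso (3.68% of all genes) and 9 in Poly (9.99%) compared with Pro, and 15 lower (8.75%) and 1 higher (15.1%) in Ortho. Median centring gave 6 (4.26%), 6 (9.39%), 15 (9.95%) and 1 (16%). These scalings move all genes, whose median in Ortho compared with Pro went from -0.425 to -0.028 under both and to -0.723 with equal sums. The replicate block changed no count of calls (38 lower in Ortho compared with Poly). A block over Baso, Poly and Ortho alone, added after the data were seen, also gave 38, against 4.83% of all genes. At the adjusted p alone it gave 9 lower and 3 higher in Poly compared with Baso, against 9.44% and 12.6% of all genes.

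Signs turned for small differences. In Poly compared with Pro, Mad2l1 read 0.08 and Cdc20 0.01 with hemoglobin genes left out. Spc24, last step against earlier, read 0.06 without Pro replicate 2 and 0.05 without Ortho replicate 1, down to -0.21 without Ortho replicate 3. In Ortho compared with Poly, Cenpx read 0.09 with hemoglobin genes left out, 0.10 with median centring, and 0.28, 0.07 and 0.06 without Poly replicate 3, Ortho replicate 1 and Ortho replicate 3, down to -0.29 without Ortho replicate 2. Mau2 read 0.06 and 0.07 under those scalings, Cep55 0.03 without Ortho replicate 2 (-0.35 without Ortho replicate 3) and Rbl2 -0.02 with equal sums. In Ortho compared with Pro, Mau2 read 0.35 and 0.28, and Rbl2 0.20 and 0.15, again under those scalings in that order. The cause was not tested.

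Counts for the related lists in Ortho compared with Poly, whose alternatives were added after the data were seen, moved by over 1.5 times for the inner centromere (4 with a pseudocount of 5), MuvB (3 under both scalings, 9 with the adjusted p alone), and, with the adjusted p alone, cohesin (7), the anaphase-promoting complex (11) and cyclins (9). The sequencing depth is unknown, so how precisely low values were measured is unknown too.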
